A study of Mus musculus with 36 samples.

Results

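The response to the synthetic agonist T0901317 was examined in the livers of mice that carried only a mutant form of the liver X receptor alpha (LXRalpha). The mutant has phenylalanine in place of tryptophan at residue 441 and was made with CRISPR. F/F mice carried the change on both alleles, W/F mice on 1 allele and W/W mice, the controls, on none. All comparisons of T0901317 with vehicle were made on a high fat, high cholesterol diet that promotes metabolic dysfunction-associated steatohepatitis (MASH), a fatty liver disease with inflammation and scarring. Male mice aged 11 to 12 weeks received this diet for 4 weeks and a daily gavage of vehicle or of 10 mg/kg T0901317 in the last 2 weeks, and an independent cohort stayed on chow. The comparison used the 4 F/F mice given T0901317 and the 4 F/F mice given vehicle, which are 8 of the 36 libraries of PolyA RNA from 9 groups. It covered the 16638 genes that reached 1 TPM (transcripts per 1000000) in at least 4 libraries, of 49315 genes listed. The comparison asks what the agonist does when mutant LXRalpha is the only LXRalpha present.

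LXRalpha and LXRbeta are nuclear receptors for oxidised cholesterol. With their partner RXR they bind DNA elements near genes of sterol export, fatty acid synthesis and lipoprotein metabolism, and agonists such as T0901317 turn these genes on, with triglyceride accumulating in the liver as a well known side effect. In macrophages, including the resident Kupffer cells of the liver, LXRs also take part in maintaining cell identity and in restraining inflammatory genes. T0901317 binds both LXRs and is also a known ligand of the pregnane X receptor (PXR), which controls genes of drug metabolism.

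Fold changes are fitted differences of log2(TPM + 1) from limma, given with their standard error, and adjusted p-values are by Benjamini-Hochberg over all 16638 genes. As deposited, 5841 genes passed an adjusted p of 0.05, of which 658 were higher with T0901317 and 5183 lower, and the median gene moved by -0.24. TPM of a library sum to a constant, and the 100 most abundant genes took 41.6% to 44.5% of the total in F/F vehicle mice and 45.2% to 49.3% in F/F mice given T0901317. After dividing each library by a median-of-ratios factor, 2898 genes passed, of which 1303 were higher and 1595 lower, and the median gene moved by -0.04. A gene is said here to have risen or fallen, or to be called, where it passed in both scalings with the same sign. This held for 2237 genes (13.4%), of which 642 rose (3.86%) and 1595 fell (9.59%). Counts within gene lists are to be read beside these shares. Some counts below say for how many genes all F/F mice lay above or below all W/W vehicle mice. The share of all genes that did so was not computed. The genes counted were chosen by a change from the F/F vehicle mice, so these counts are descriptions only. All 4 treated mice were above all 4 vehicle mice for 4.11% of genes as deposited, and below them for 29.2%. Depth recovered from the steps of the low TPM values was 21.3 to 35.8 M reads (M, 1000000) with T0901317 and 23.1 to 26.5 M reads with vehicle. The labels do not say that each library is a separate animal. Each was taken as 1 mouse. The p-values measure the spread between libraries within a group, pooled over all 9 groups. Spread within the W/W, W/F and chow groups therefore enters the p-values of F/F too.

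Treated mouse 3 was at 1 end of the spread of the treated mice. On the first principal component of all 36 libraries it lay at -34.8, against -72.8, -65.2 and -51.7 for the other treated mice, -107 to -99.0 for F/F vehicle mice and -32.5 to -1.45 for F/F chow mice. Without it 3244 genes passed as deposited, the fewest with any 1 F/F mouse left out. In both scalings 422 genes rose and 801 fell without it, against 642 and 1595 with it. Counts for each gene group are therefore given with and without this mouse where it matters, and no other mouse was left out for them. In whole liver, fewer cells of a type and less RNA per cell cannot be told apart.

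Neither LXR transcript was called. Nr1h3 (ENSMUSG00000002108), the usual symbol of LXRalpha, was at 124, 103, 95.8 and 91.4 TPM in F/F vehicle mice and at 93.7, 102, 90.3 and 98.7 TPM with T0901317. The groups overlapped, and the log2 fold change was -0.10 ± 0.10 (adjusted p = 0.48) as deposited and 0.14 after rescaling. Nr1h2 (ENSMUSG00000060601), the usual symbol of LXRbeta, which the study's description pairs with the name LXRalpha, was at 45.3 to 50.9 TPM with vehicle and at 36.6 to 44.9 TPM with T0901317. Every treated mouse was below every vehicle mouse for Nr1h2, but the difference was not called (log2 fold change -0.24, adjusted p = 0.068, and -0.01 after rescaling). The labelled tissue matched its markers, since the 18 hepatocyte genes measured together held 74947 to 81289 TPM with vehicle and at least 92136 TPM in every mouse given T0901317.

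Of 25 LXR target genes tested, 16 rose with T0901317 in F/F livers and 1 fell, and the same counts were found without treated mouse 3. Their median log2 fold change was 0.80, against -0.24 for all genes. The largest rises were those of Cd5l (log2 fold change 5.49 ± 0.38), which is also a Kupffer gene, and of Scd1 (ENSMUSG00000037071, chr19:44394455-44407879, minus strand), the desaturase that makes monounsaturated fatty acids. Scd1 was at 11.2, 14.997, 13.7 and 12.6 TPM with vehicle and at 491, 697, 559 and 583 TPM with T0901317. The groups did not overlap, and the log2 fold change was 5.36 ± 0.30 (adjusted p = 6.2e-14). The treated F/F mice were still far below W/W mice given vehicle, which held 5889 to 11171 TPM of Scd1.

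The sterol exporters of the canalicular membrane moved together. Abcg5 was at 39.4, 37.4, 31.8 and 40.3 TPM with vehicle and at 119, 114, 151 and 112 TPM with T0901317 (log2 fold change 1.71 ± 0.23, adjusted p = 5.1e-06). Its partner subunit Abcg8 was at 29.7, 28.0, 25.8 and 33.3 TPM with vehicle and at 83.8, 78.4, 111 and 93.9 TPM with T0901317 (log2 fold change 1.61 ± 0.27, adjusted p = 8.5e-05). Treated mouse 3 was the highest for both subunits, and neither gene had overlapping groups. The RefSeq starts of both genes have 109 bases between them and point away from each other, so that 1 short stretch is upstream of both. It lies at chr17:84683012-84683120 (GRCm38.p6, RefSeq, plus strand, with Abcg8 to the right) and is shown because these genes share it.
Abcg5-Abcg8: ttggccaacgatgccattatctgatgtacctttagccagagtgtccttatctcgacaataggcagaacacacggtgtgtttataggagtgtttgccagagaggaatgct

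Abca1, which loads cholesterol onto apolipoprotein particles, was at 34.1, 40.0, 33.0 and 41.7 TPM with vehicle and at 59.5, 64.7, 59.6 and 55.2 TPM with T0901317. The log2 fold change was 0.67 ± 0.15 (adjusted p = 0.0014) for Abca1, and the treated F/F mice lay above all 4 W/W vehicle mice. Abcg1, an exporter of sterols to lipoproteins, was at 32.5, 35.1, 33.2 and 41.0 TPM with vehicle and at 57.0, 52.6, 36.9 and 41.5 TPM with T0901317. Treated mice 3 and 4 lay within or next to the vehicle range for Abcg1, and the gene passed only after rescaling (log2 fold change 0.38, adjusted p = 0.20, and 0.61, adjusted p = 0.037). Mylip, which directs the LDL receptor to degradation, was the same kind of case, with 0.41 (adjusted p = 0.071) as deposited and 0.63 (adjusted p = 0.0042) after rescaling. Apoe and Apoc1, carriers on lipoproteins, rose by 0.42 ± 0.11 and 1.27 ± 0.11.

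**Figure D1:**
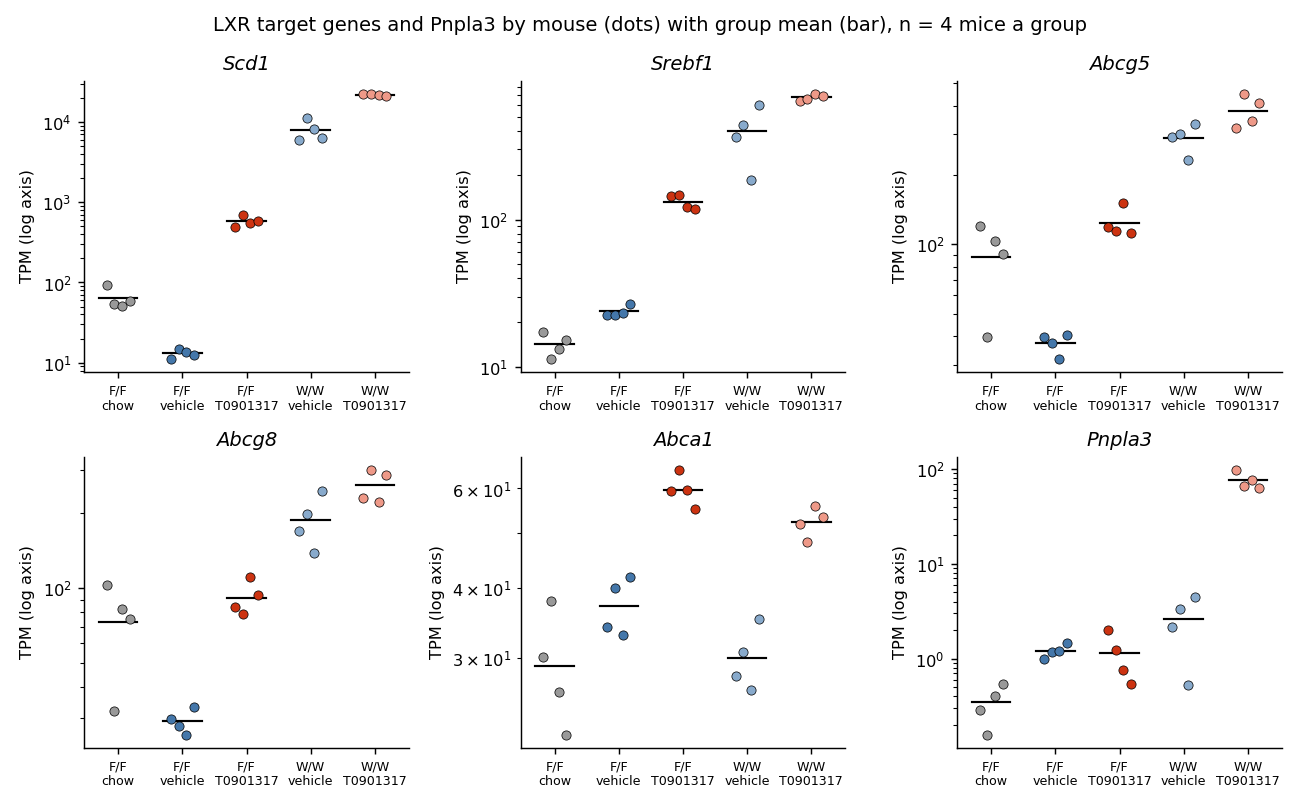
TPM on a log axis for Scd1, Srebf1, Abcg5, Abcg8, Abca1 and Pnpla3, with 1 dot for each mouse and a bar at the mean of each group of 4 mice: F/F on chow, and F/F and W/W on the MASH diet with vehicle or T0901317. F/F mice given T0901317 lie above F/F vehicle mice for 5 genes and overlap them for Pnpla3. For Scd1, Srebf1, Abcg5 and Abcg8 they stay below W/W vehicle mice, and for Abca1 they lie above them.

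The lipogenic regulators rose as well. Srebf1, which encodes the sterol regulatory factor that drives fatty acid synthesis, was at 22.5, 22.6, 23.3 and 26.6 TPM with vehicle and at 145, 146, 122 and 117 TPM with T0901317 (log2 fold change 2.43 ± 0.22, adjusted p = 1.7e-09). Mlxipl, the carbohydrate response factor ChREBP, was at 53.6 to 74.1 TPM with vehicle and at 143 to 212 TPM with T0901317 (log2 fold change 1.41 ± 0.17). Fasn, the fatty acid synthase, was at 7.63, 8.64, 11.0 and 7.93 TPM with vehicle and at 27.8, 26.001, 16.6 and 17.5 TPM with T0901317. The groups did not overlap for Fasn, but its call (log2 fold change 1.21 ± 0.41, adjusted p = 0.025) was lost without treated mouse 1 or 2, or without vehicle mouse 1 or 4. Lpcat3, which puts polyunsaturated fatty acids into phospholipids, was at 58.5 to 65.9 TPM with vehicle and at 97.2 to 122 TPM with T0901317 (log2 fold change 0.81 ± 0.14, adjusted p = 1.0e-04).

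The promoters of these genes are shown because some share a stretch of sequence. The longest stretch common to the 250 bases before the starts of Abca1 and Fasn was TGACCGGTAGTAACCCCG, 18 bases that hold the reverse complement of the known LXR element of such genes. Both strands of the 32851 RefSeq promoters (250 bases before to 50 after each start) were searched for it with at most 3 differences, a limit set by the closest stretch in Srebf1. It was found in 6 promoters (0.0183%), of which 5 belong to genes tested: Abca1, Fasn, Srebf1, Rnf145 and Acsl3. All 5 of these genes rose, so that 5 of 577 promoters of genes that rose (0.867%) and 0 of 1517 of genes that fell held it. Acsl3, an acyl-CoA synthetase outside the lists, was at 6.029 to 7.565 TPM with vehicle and at 8.734 to 17.05 TPM with T0901317. The pattern was chosen from Abca1 and Fasn and its limit from Srebf1, so the matches of these genes were fixed in advance. Only Rnf145 and Acsl3 were not used to set it, and the shares are descriptions. The capitals mark the matches, and each window is written 5′ to 3′ in the direction of its gene (GRCm38.p6, RefSeq). The Abca1 window is chr4:53159896-53160145, minus strand, with the match 67 to 50 bases before the start. The Fasn window is chr11:120824548-120824797, minus strand, with the match 225 to 208 bases before the start. The Srebf1 window is chr11:60210472-60210721, minus strand, before a start inside the annotated gene (chr11:60199089-60222581). It holds 2 matches, 182 to 165 and 131 to 114 bases before that start. The Rnf145 window is chr11:44520039-44520288, plus strand, with the match on the opposite strand, 94 to 77 bases before the start.
Abca1: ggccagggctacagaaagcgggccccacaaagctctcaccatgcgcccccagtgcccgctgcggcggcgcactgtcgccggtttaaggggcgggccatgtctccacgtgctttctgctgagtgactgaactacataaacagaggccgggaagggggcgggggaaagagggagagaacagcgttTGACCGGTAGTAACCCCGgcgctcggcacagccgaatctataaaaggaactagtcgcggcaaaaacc
Fasn: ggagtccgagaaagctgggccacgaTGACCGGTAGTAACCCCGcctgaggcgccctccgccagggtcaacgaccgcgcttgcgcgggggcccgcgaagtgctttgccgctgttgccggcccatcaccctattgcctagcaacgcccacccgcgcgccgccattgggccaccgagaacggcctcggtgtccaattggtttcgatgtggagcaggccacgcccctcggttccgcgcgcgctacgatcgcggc
Srebf1: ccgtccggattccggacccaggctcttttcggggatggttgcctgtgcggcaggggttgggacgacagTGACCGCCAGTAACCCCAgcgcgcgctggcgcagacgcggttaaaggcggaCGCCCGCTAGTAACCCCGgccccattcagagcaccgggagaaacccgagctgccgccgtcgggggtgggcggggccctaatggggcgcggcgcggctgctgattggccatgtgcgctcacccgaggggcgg
Rnf145: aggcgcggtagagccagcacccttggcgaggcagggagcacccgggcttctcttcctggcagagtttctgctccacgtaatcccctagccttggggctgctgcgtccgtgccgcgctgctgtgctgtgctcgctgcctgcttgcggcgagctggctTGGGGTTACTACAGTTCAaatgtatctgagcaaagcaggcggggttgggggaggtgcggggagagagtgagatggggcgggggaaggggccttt

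The other LXR targets gave a mixed picture. Rnf145 rose by 0.79 ± 0.19 and Pltp, a phospholipid transfer protein, by 1.06 ± 0.37. Smpdl3a, a phosphodiesterase known as an LXR target in macrophages, was the 1 gene that fell, from 86.7 to 109 TPM with vehicle to 56.7 to 72.6 TPM with T0901317 (log2 fold change -0.57 ± 0.11). Lpl, the lipoprotein lipase, was not called (-0.36 ± 0.30, adjusted p = 0.35), and neither were Apoc2, Arl4c, Mertk, Ttc39b or Eepd1.

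Fatty acid and triglyceride synthesis rose in part. Of 25 genes tested 8 rose and 0 fell, with or without treated mouse 3, and 5 of the 8 (Srebf1, Mlxipl, Fasn, Scd1 and Acaca) are also in the list of LXR targets. In W/W mice 17 of the 25 rose (7.13% of all genes did) and 0 fell, with a median log2 fold change of 1.51 against 0.38 in F/F. The response was called as lower in F/F for 10 of the 25 and as higher for 3, against 11.2% and 3.27% of all genes. Thrsp, a lipogenic nuclear protein, was at 5.71, 4.73, 3.96 and 3.21 TPM with vehicle and at 86.6, 97.02, 92.8 and 26.2 TPM with T0901317 (log2 fold change 3.68 ± 0.67, adjusted p = 1.7e-04). Treated mouse 4 was the lowest treated mouse and was still above every vehicle mouse. Elovl6, which elongates palmitate, was at 3.09 to 5.12 TPM with vehicle and at 9.37 to 14.0 TPM with T0901317 (log2 fold change 1.25 ± 0.27). Acaca, which makes malonyl-CoA, was at 2.13 to 2.90 TPM and at 4.56 to 6.42 TPM in the same groups (log2 fold change 0.80 ± 0.18). Acly, Acacb, Me1, Acss2, Scd2 and Gpam did not pass in both scalings, with log2 fold changes from -0.77 for Gpam to 0.66 for Scd2.

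Pnpla3, a lipid droplet enzyme whose variants affect fatty liver disease, was not called. It was at 0.98, 1.17, 1.204 and 1.45 TPM in F/F mice with vehicle and at 2.01, 1.24, 0.76 and 0.54 TPM with T0901317. The treated mice spanned the vehicle range on both sides, and the log2 fold change was -0.09 ± 0.33 (adjusted p = 0.86). In W/W mice it was at 0.52 to 4.49 TPM with vehicle and at 62.8 to 97.7 TPM with T0901317, and the response in F/F was lower by -4.62 (adjusted p = 4.1e-08). The sign of the F/F value for Pnpla3 turned under rescaling.

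The test of the difference between the responses in F/F and W/W livers called 14.5% of all genes, 3.27% with a higher and 11.2% with a lower response in F/F. As deposited 5065 genes passed, 10.8% of them higher, and after rescaling 3005 passed, 37.9% of them higher. Of the 25 LXR targets, 9 responded more in F/F and 6 less. The response was larger by 3.86 for Scd1 (adjusted p = 1.2e-07), by 1.55 for Srebf1 (adjusted p = 4.5e-04), by 1.32 for Abcg5 (adjusted p = 0.0039) and by 1.13 for Abcg8 (adjusted p = 0.027). These 4 genes were lower in F/F than in W/W vehicle mice, without overlap. Of the 16 targets that rose, all 4 F/F vehicle mice lay below all 4 W/W vehicle mice for 12, and with T0901317 the F/F mice still did so for 9. The response was smaller by -3.09 for Lpl and by -2.26 for Pltp. For Abca1 the responses differed by -0.11 (adjusted p = 0.72), with log2 fold changes of 0.67 in F/F and 0.78 in W/W.

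Of 26 genes of sterol synthesis and uptake, 23 rose in W/W mice given T0901317 (7.13% of all genes did) and 0 fell, with a median log2 fold change of 1.39. In F/F mice 2 rose, Insig1 and Ebp, and 1 fell, Sqle, with a median of -0.15. The difference was called as a lower response in F/F for 19 of the 26 genes and as a higher one for 1, against 11.2% and 3.27% of all genes. Sqle, the squalene epoxidase, was at 7.91, 7.54, 12.9 and 9.07 TPM in F/F vehicle mice and at 5.26, 3.60, 2.76 and 3.16 TPM with T0901317, where the groups did not overlap (log2 fold change -1.14 ± 0.17, adjusted p = 1.4e-05). Sqle went the other way in W/W, from 1.90 to 3.10 TPM to 27.8 to 35.4 TPM, so that W/W mice given T0901317 held more Sqle than any F/F mouse on the diet. Fdps, which makes farnesyl diphosphate, was at 9.21 to 14.99 TPM and 5.36 to 14.5 TPM in F/F mice, with overlapping groups, and at 10.2 to 18.6 TPM and 100.2 to 146 TPM in W/W mice. Insig1, which retains the SREBP complex in the endoplasmic reticulum, was at 20.6 to 35.5 TPM with vehicle and at 45.8 to 65.5 TPM with T0901317 in F/F mice, and its log2 fold changes of 1.025 in F/F and 1.12 in W/W differed by -0.10 (adjusted p = 0.84).

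**Figure D2:**
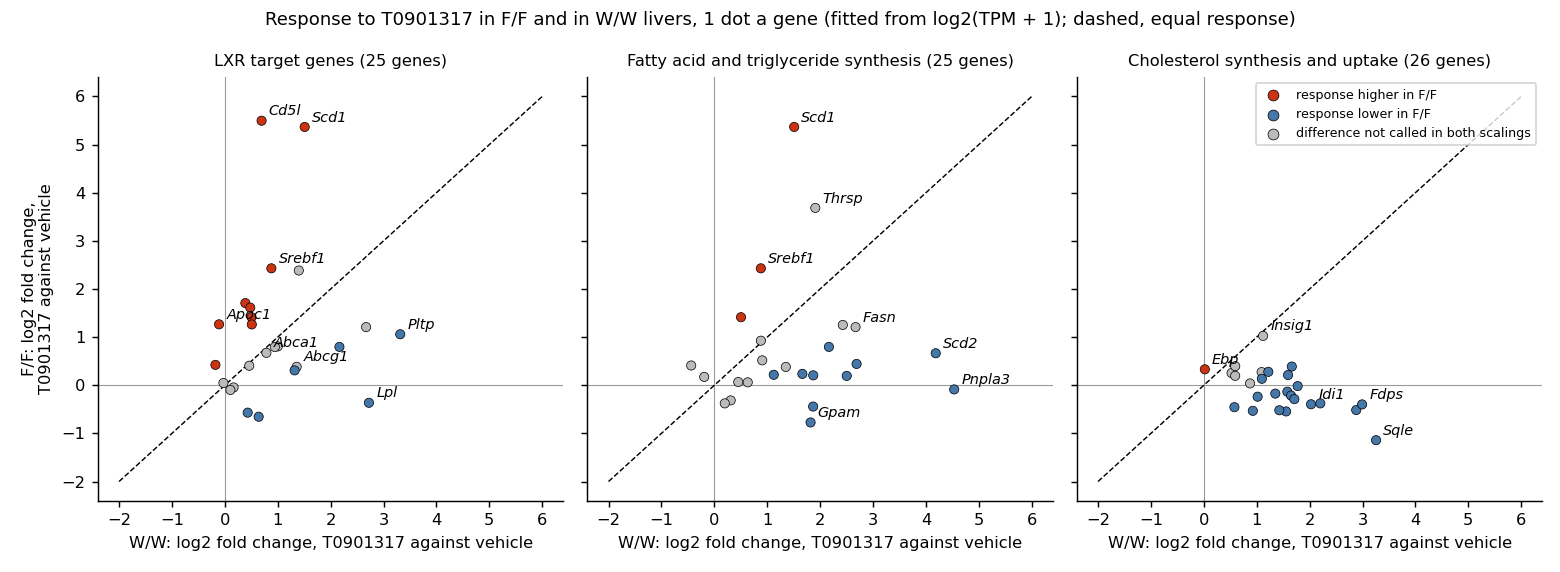
Fitted log2 fold change with T0901317 against vehicle in W/W livers (x axis) and F/F livers (y axis), with 1 dot for each gene of 3 lists and a dashed line at equal response; coloured dots passed the test of the difference in both scalings. Scd1, Srebf1 and Cd5l lie above the line, and most cholesterol synthesis genes lie far to the right near or below 0 in F/F. Of the fatty acid and triglyceride list, 10 coloured genes lie below the line and 3 above it.

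Beyond these LXR lists, T0901317 raised genes of drug and bile acid metabolism. Of 18 target genes of CAR and PXR, the xenobiotic receptors of the liver, 11 rose and 0 fell, and 8 rose without treated mouse 3. Cyp3a11 was at 2132, 2070.2, 1964 and 2162 TPM with vehicle and at 4866, 5491, 8393 and 8191 TPM with T0901317 (log2 fold change 1.65 ± 0.47, adjusted p = 0.0085). Treated mice 3 and 4 were the highest for Cyp3a11, and also for Cyp2b10, at 22.0 and 35.6 TPM against 4.49 and 3.83 TPM in treated mice 1 and 2 and at most 0.16 TPM with vehicle. Cyp2c29 was at 99.7, 38.7, 67.8 and 96.2 TPM with vehicle and at 638, 684, 1428 and 1249 TPM with T0901317 (log2 fold change 3.71 ± 0.26, adjusted p = 9.5e-12). Ces2a, a carboxylesterase, was at 83.1 to 128 TPM and at 626 to 933 TPM in the same groups (log2 fold change 2.86 ± 0.21). Ces2a shares 17.3% of its sequence with related genes and Cyp2b10 shares 8.70%, so their single values are less certain. In W/W mice 7 of the 18 rose and 1 fell, where 7.13% and 2.9% of all genes did. The response was higher in F/F for 4 genes (3.27% of all genes), Cyp2b10, Cyp2c29, Ces2a and Nr1i3.

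Of 23 genes of bile acid synthesis and transport, 8 rose and 0 fell in F/F mice, and 7 rose without treated mouse 3. Cyp7a1, the rate-limiting enzyme of bile acid synthesis and an LXR target in mice, was at 21.0, 10.1, 11.3 and 15.6 TPM with vehicle and at 60.0, 106, 111 and 49.8 TPM with T0901317 (log2 fold change 2.38 ± 0.45, adjusted p = 2.7e-04). Cyp8b1, which makes cholic acid, was at 12.8 to 25.4 TPM and at 54.0 to 163 TPM in these groups (log2 fold change 2.26 ± 0.31), and W/W vehicle mice held 200.4 to 346 TPM. Slc27a5, which activates bile acids for conjugation, was at 179 to 208 TPM and at 387 to 583 TPM (log2 fold change 1.23 ± 0.11). Slc10a1, the uptake transporter of the hepatocyte, rose by 1.35 ± 0.21, and Cyp2c70, which makes muricholic acids, by 1.40 ± 0.19. The export pumps Abcb11, Abcb4 and Abcc2 did not pass in both scalings, with log2 fold changes of 0.39, 0.07 and 0.39. Of the 23 genes, 2 rose in W/W mice and 3 fell, where 7.13% and 2.9% of all genes did. The response was higher in F/F for 8 and lower for 2, the transporter genes Abcc4 and Slc51b, against 3.27% and 11.2% of all genes.

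Of 25 PPAR-alpha target genes, which serve fatty acid oxidation, 7 rose and 0 fell, and 5 rose without treated mouse 3. Cyp4a10 was at 4.91 to 16.4 TPM with vehicle and at 32.3, 24.9, 209 and 56.1 TPM with T0901317, with treated mouse 3 far above the others, and it shares 29.8% of its sequence with related genes. Fabp1, the hepatocyte fatty acid carrier, was at 2198 to 2460.1 TPM and at 4327 to 6246 TPM (log2 fold change 1.12 ± 0.22). Cpt1a, Pdk4 and Fgf21 were not called, with log2 fold changes of -0.23, -1.06 and -1.14. For all 7 genes that rose, the treated F/F mice lay below every W/W vehicle mouse.

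Some hepatocyte genes of both zones of the lobule rose. Of 14 pericentral genes 5 rose and 0 fell, of 15 periportal genes 6 rose and 1 fell, and of 18 general hepatocyte genes 6 rose and 1 fell. Without treated mouse 3 the counts were 5 and 1, 5 and 0, and 6 and 0. Rgn, a calcium-binding pericentral protein, was at 116, 86.1, 102 and 99.1 TPM with vehicle and at 422, 514, 692 and 488 TPM with T0901317 (log2 fold change 2.37 ± 0.12, adjusted p = 2.2e-14). The periportal cytochrome Cyp2f2 was at 69.5, 129, 65.4 and 54.3 TPM and at 338, 332, 574 and 625 TPM in the same groups (log2 fold change 2.56 ± 0.23, adjusted p = 2.1e-09). Alb, the serum albumin, was at 18000.1 to 21731 TPM with vehicle and at 27040.0 to 41111 TPM with T0901317 (log2 fold change 0.74 ± 0.19, adjusted p = 0.0042). The transcription factors Hnf4a and Cebpa were not called, with log2 fold changes of -0.06 and -0.04. The pericentral genes Axin2, Lgr5 and Tbx3, which respond to Wnt signals, were not called either, at -0.32, -0.50 and 0.03.

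Male-biased liver genes rose in part in F/F mice and fell in part in W/W mice. Of 18 tested, 7 rose and 0 fell in F/F, and 1 rose and 9 fell in W/W (2.9% of all genes fell there). The response was higher in F/F for 10 and lower for 0, against 3.27% and 11.2% of all genes. The F/F counts were the same without treated mouse 3. Mup20, a major urinary protein, was at 6781, 8383, 5446 and 3291 TPM in F/F vehicle mice and at 16340.1, 17615, 13813 and 15459.7 TPM with T0901317, and at 10596 to 15936 TPM in W/W vehicle mice and 1431 to 4019.9 TPM in W/W mice given T0901317. Mup20 and Cyp4a12a share 50.5% and 48.9% of their sequence with related genes, and Mup3 13.3%. Mup3 rose by 3.49 ± 0.40 in F/F and fell by 2.08 in W/W. Cyp4a12a and Ugt2b1 rose in F/F by 2.28 ± 0.37 and 1.90 ± 0.19, and Cyp4a12a was the 1 gene that also rose in W/W (1.29). Hsd3b5 and Mup7 had negative values in both genotypes, -0.45 and -1.42 in F/F, where they were not called, and -2.69 each in W/W, where Hsd3b5 alone was called. Of 11 female-biased genes 3 rose and 0 fell in F/F, and 2 rose without treated mouse 3.

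Genes of resident Kupffer cells rose in part. Of 14 Kupffer genes 6 rose and 0 fell, with or without treated mouse 3, while of 12 genes common to macrophages 0 rose and 2 fell, Itgam and Cd68, where 68.7% of the exons of Itgam overlap another gene. Without treated mouse 3 the call of Cd68 was lost and 1 gene fell. Cd5l (ENSMUSG00000015854, chr3:87357881-87371073, plus strand), a secreted macrophage protein that is both a Kupffer gene and an LXR target, was at 1.12, 2.04, 1.34 and 1.83 TPM with vehicle and at 95.7, 109, 96.8 and 168 TPM with T0901317 (log2 fold change 5.49 ± 0.38, adjusted p = 9.5e-12). Clec4f (ENSMUSG00000014542, chr6:83644542-83656187, minus strand), a lectin found on Kupffer cells, was at 0.46, 0.28, 0.51 and 0.17 TPM and at 29.3, 26.6, 28.2 and 37.3 TPM in the same groups (log2 fold change 4.53 ± 0.27, adjusted p = 5.3e-13). Vsig4, a complement receptor, was at 0.47 to 1.61 TPM with vehicle and at 15.4 to 28.8 TPM with T0901317 (log2 fold change 3.29 ± 0.31). All 4 treated mice were high for all 3 genes, and no vehicle mouse came near them.

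Fcna, a ficolin, rose from 6.47 to 9.60 TPM to 18.1 to 32.6 TPM, Clec1b from 2.19 to 3.49 TPM to 8.72 to 11.0 TPM and Il18bp from 7.70 to 8.92 TPM to 17.6 to 23.6 TPM. Other Kupffer genes were near 0 in both groups. Timd4, which marks long-lived Kupffer cells, was at 0 to 0.21 TPM with vehicle and at 0.13 to 0.73 TPM with T0901317, and Cd163, a scavenger receptor, at 0 to 0.13 TPM and 0 to 0.12 TPM. W/W vehicle mice held 5.26 to 6.74 TPM of Timd4 and 3.72 to 5.12 TPM of Cd163, with no overlap with either F/F group. Folr2, Slc40a1, Spic, Id3, Marco and C6 were not called, with Marco at 0.06 to 1.24 TPM and 0.70 to 6.75 TPM. In W/W mice 0 of the 14 genes rose and 1 fell, which is near the shares of all genes there, 7.13% and 2.9%. The response was higher in F/F for 7 genes and lower for 0, against 3.27% and 11.2% of all genes. The response of Clec4f was larger in F/F by 4.03 than in W/W (adjusted p = 1.5e-08). W/W vehicle mice held 68.0 to 77.6 TPM of Clec4f, above every treated F/F mouse. Of the 6 Kupffer genes that rose, all treated F/F mice lay above all W/W vehicle mice for 3 and below them for 2.

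Genes of recruited and lipid-associated macrophages were lower, but many of these calls were lost without treated mouse 3, as were many over all genes. Of 16 tested 0 rose and 6 fell (Spp1, Lgals3, Fabp5, Cd9, Ctsd and Trem2), and 2 fell without treated mouse 3. Spp1, osteopontin, which bile duct cells also make, was at 2757, 3433, 3359 and 3146 TPM with vehicle and at 1582, 1277, 700.1 and 744 TPM with T0901317 (log2 fold change -1.64 ± 0.29, adjusted p = 1.3e-04). Ctsd, a lysosomal protease, was at 1117 to 1402 TPM and at 497 to 699.7 TPM (log2 fold change -1.03 ± 0.15). Gpnmb, a glycoprotein of lipid-laden macrophages, was at 515, 497, 461 and 601 TPM with vehicle and at 165, 194, 143 and 225 TPM with T0901317. The groups did not overlap for Gpnmb, but it did not pass after rescaling (log2 fold change -1.52, adjusted p = 0.027, and -1.28, adjusted p = 0.095). The summed level of the 16 genes was 7719.7 to 8527 TPM with vehicle and 2522.5 to 4028 TPM with T0901317, against 413 to 506 TPM in W/W vehicle mice.

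Neutrophil genes had the largest share of falling genes among the 32 lists. Of 13 tested 11 fell and 0 rose, with or without treated mouse 3, and the median log2 fold change was -2.08. S100a8, a calprotectin subunit, was at 64.6, 125, 43.1 and 90.2 TPM with vehicle and at 24.0, 12.2, 5.71 and 14.1 TPM with T0901317 (log2 fold change -2.49 ± 0.52, adjusted p = 7.4e-04). Camp, the cathelicidin of neutrophil granules, was at 10.2, 16.4, 7.52 and 10.6 TPM and at 1.73, 0.97, 1.05 and 1.09 TPM (log2 fold change -2.43 ± 0.20, adjusted p = 2.9e-10). Ngp, another granule protein, was at 14.2 to 50.9 TPM and at 1.48 to 6.99 TPM (log2 fold change -2.72 ± 0.39). Chil3, a chitinase-like protein also made by macrophages, fell by 2.98 ± 0.36, with 26.9% of its sequence shared with related genes. Elane and Csf3r were not called, with log2 fold changes of -0.59 and -0.59. In W/W mice 0 of the 13 passed in both scalings, where 10% of all genes did, and S100a8 was at 0.73 to 2.97 TPM there with vehicle. The treated F/F mice were still above all W/W vehicle mice for 10 of the 11 genes that fell. Of 4 genes tested that mark blood, the 3 globins fell too, with or without treated mouse 3, and the fat, muscle and pancreas markers did not reach the minimum level. Hbb-bs was at 212 to 501 TPM with vehicle and at 79.0 to 174 TPM with T0901317 (log2 fold change -1.53 ± 0.26). The part of blood in the fall of the neutrophil genes was not tested.

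Lymphocyte genes were mostly not called. Of 10 T and NK cell genes 1 fell, Il7r, which was at 24.96 to 32.3 TPM with vehicle and at 4.02 to 7.87 TPM with T0901317, while Cd3d, Cd3g, Cd4 and Cd8a had log2 fold changes of -0.27 to -0.01. Of 7 B and plasma cell genes Jchain fell, and not without treated mouse 3. Of 10 genes of antigen presentation and dendritic cells 0 passed in either scaling by limma. The summed level of these 10 genes and 2 below the minimum was 1004.6 to 1781 TPM with vehicle and 1357.5 to 3209.5 TPM with T0901317, with treated mouse 1 the highest.

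**Figure D3:**
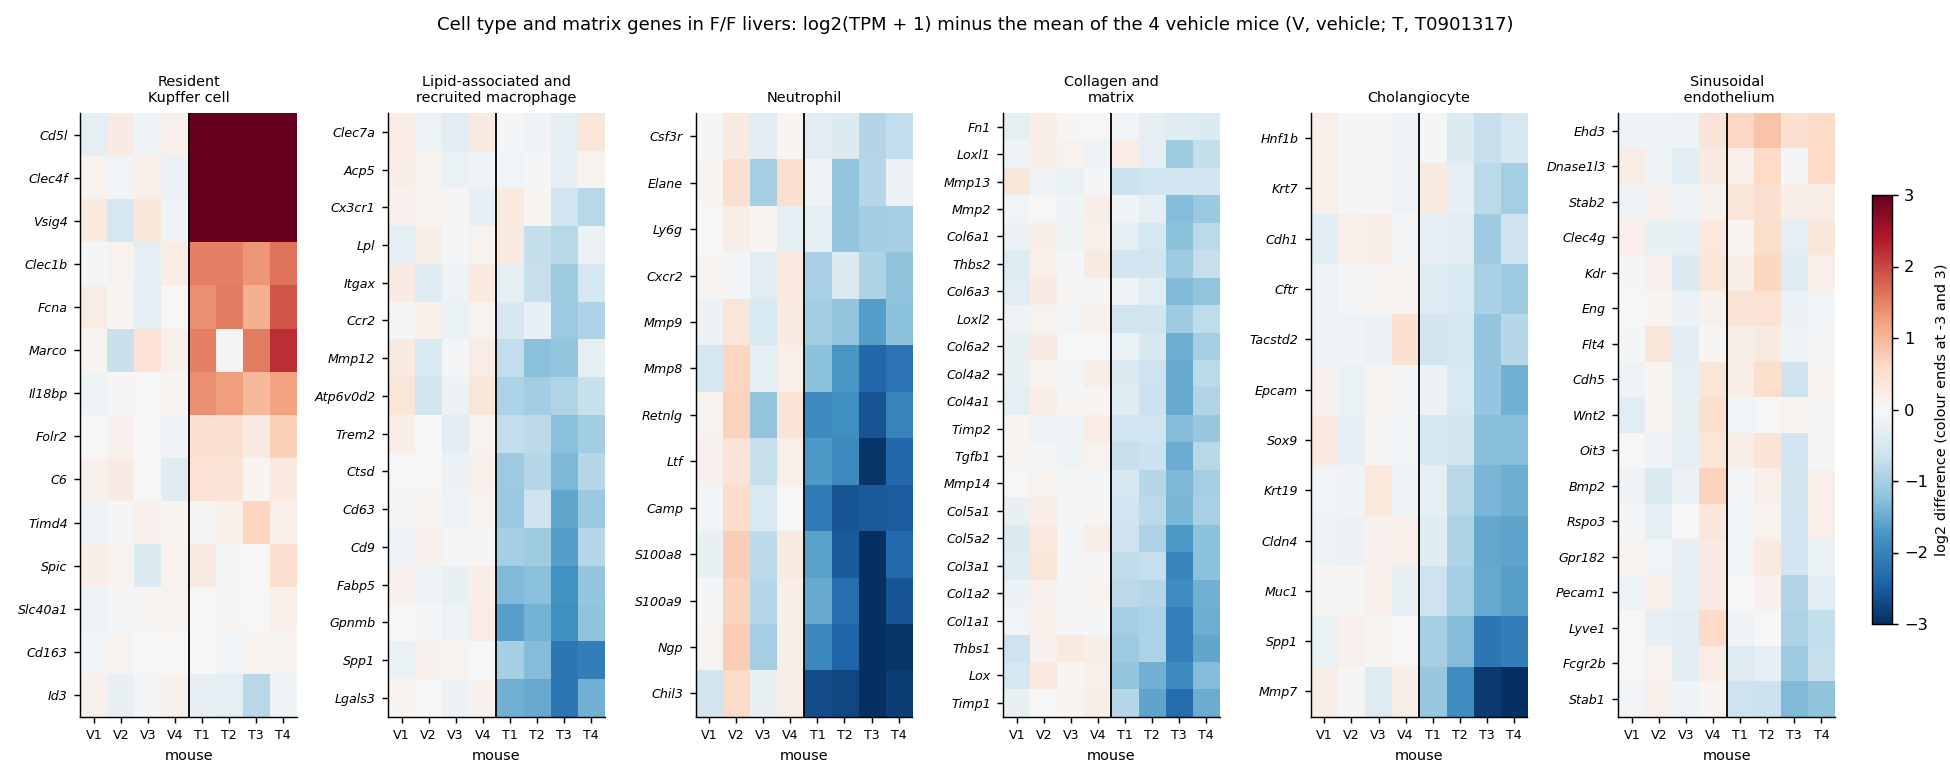
Difference of log2(TPM + 1) from the mean of the 4 F/F vehicle mice, for the genes of 6 lists (rows) in the 4 vehicle (V) and 4 treated (T) F/F mice (columns), red for higher and blue for lower, with colours ending at -3 and 3. The top Kupffer genes are high in all 4 treated mice, neutrophil genes are low in all 4, and the summed matrix genes are lowest in treated mouse 3 (647 TPM, against 823 to 1177 TPM in the other treated mice).

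Matrix genes fell in F/F mice given T0901317, and the count depended on treated mouse 3. Of 22 collagen and matrix genes 15 fell and 0 rose, against 9.59% of all genes. Without that mouse 4 fell, while over all 16638 genes the number that fell went from 1595 to 801. Col1a1, the main fibrillar collagen, was at 255, 299, 261 and 261 TPM with vehicle and at 132, 139, 63.8 and 96.5 TPM with T0901317. Its groups did not overlap, but the call (log2 fold change -1.37 ± 0.39, adjusted p = 0.0086) was lost without treated mouse 3, where the value was -1.14. Lox, which crosslinks collagen, was at 5.48, 10.2, 8.56 and 9.12 TPM with vehicle and at 3.06, 2.37, 1.44 and 2.74 TPM with T0901317 (log2 fold change -1.45 ± 0.20, adjusted p = 3.6e-06). Timp1, an inhibitor of matrix proteases, was at 65.3 to 86.3 TPM and at 14.7 to 41.8 TPM (log2 fold change -1.55 ± 0.36), and Thbs1, a thrombospondin, at 11.2 to 22.1 TPM and at 3.56 to 8.69 TPM (log2 fold change -1.42 ± 0.21). The list went the other way in W/W mice, with 8 genes that rose (7.13% of all genes did) and 0 that fell, from low levels: Col1a1 was at 1.96 to 8.44 TPM with vehicle and at 7.63 to 31.2 TPM with T0901317. The difference between the responses was called for 17 of the 22 genes, all lower in F/F, against 11.2% of all genes. For the 15 genes that fell in F/F, all treated mice were still above all W/W vehicle mice.

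Of 15 stellate cell and myofibroblast genes 5 fell (Vim, Rgs5, Lum, Postn and Pdgfra), and 2 without treated mouse 3, while the quiescence gene Lrat was at 5.77 to 8.29 TPM with vehicle and at 7.53 to 12.5 TPM with T0901317 and was not called. Acta2, the smooth muscle actin of activated stellate cells, was not called at -0.20. Of 12 cholangiocyte genes 8 fell, and 5 without treated mouse 3. Mmp7, a matrix protease of bile duct cells, was at 160.0, 142, 106 and 157 TPM with vehicle and at 63.2, 37.5, 18.3 and 12.3 TPM with T0901317 (log2 fold change -2.32 ± 0.35, adjusted p = 1.9e-05). The summed level of the 12 cholangiocyte genes was 3252 to 3916 TPM with vehicle and 871 to 1930.5 TPM with T0901317, against 86.2 to 89.2 TPM in W/W vehicle mice. Krt19, a bile duct keratin, was at 31.6 to 44.0 TPM and at 12.1 to 29.2 TPM (log2 fold change -0.98 ± 0.22). Of 10 fetal and injury-induced genes 5 fell (Npy, H19, Fabp5, Cd24a and Afp) and Akr1b7 rose, and 3 fell without treated mouse 3. H19, an imprinted RNA of fetal liver, was at 233, 267, 197 and 224 TPM with vehicle and at 78.1, 73.1, 56.2 and 54.98 TPM with T0901317, with no overlap. Of 17 sinusoidal endothelium genes Ehd3 rose and Stab1 fell, with or without treated mouse 3, and the list's median was 0.02.

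Stress and proliferation lists held few calls. The interferon and chemokine lists had median log2 fold changes of -0.90 each, against -0.88 for the matrix list. Of 23 chemokine and cytokine genes 4 fell (Il1rn, Ccl7, Ccl4 and Tgfb1), and 1 without treated mouse 3. Ccl2, which recruits monocytes, was at 53.2, 61.6, 58.1 and 70.1 TPM with vehicle and at 24.3, 20.3, 11.1 and 32.8 TPM with T0901317, with no overlap, but did not pass after rescaling (log2 fold change -1.50, adjusted p = 0.037, and -1.26, adjusted p = 0.12). Of 15 interferon-stimulated genes 6 fell, and 1 without treated mouse 3, Rsad2, an antiviral enzyme (log2 fold change -1.35 ± 0.28). Isg15 was at 62.4 to 159 TPM with vehicle and at 25.2 to 58.6 TPM with T0901317, with vehicle mouse 2 the highest for Isg15, Rsad2 and Oas1a. Of 22 proliferation genes 2 fell, Top2a and Pcna, and 0 without treated mouse 3. This count is near the share of all genes that fell, 9.59%, and so is no result about the list. Of 16 genes of the unfolded protein and integrated stress response Atf3 fell, of 13 Nrf2 targets Slc7a11 fell and Ephx1 rose, of 20 acute phase genes Orm3 rose, and of 13 clock genes 0 passed in both scalings. Over all genes 3.86% rose and 9.59% fell, so single calls in these lists are near those shares. Without treated mouse 3 the calls of Atf3, Ephx1 and Orm3 were lost. Ephx1 was also lost without treated mouse 4 and without vehicle mouse 2 or 3, and Orm3 without vehicle mouse 3. Of 14 lipid droplet genes Cideb and Fitm1 rose and 0 fell, and 76.3% of the exons of Cideb overlap another gene. The droplet coat gene Plin2 passed only as deposited (log2 fold change -0.63, adjusted p = 0.0088, and -0.40, adjusted p = 0.15).

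**Figure D4:**
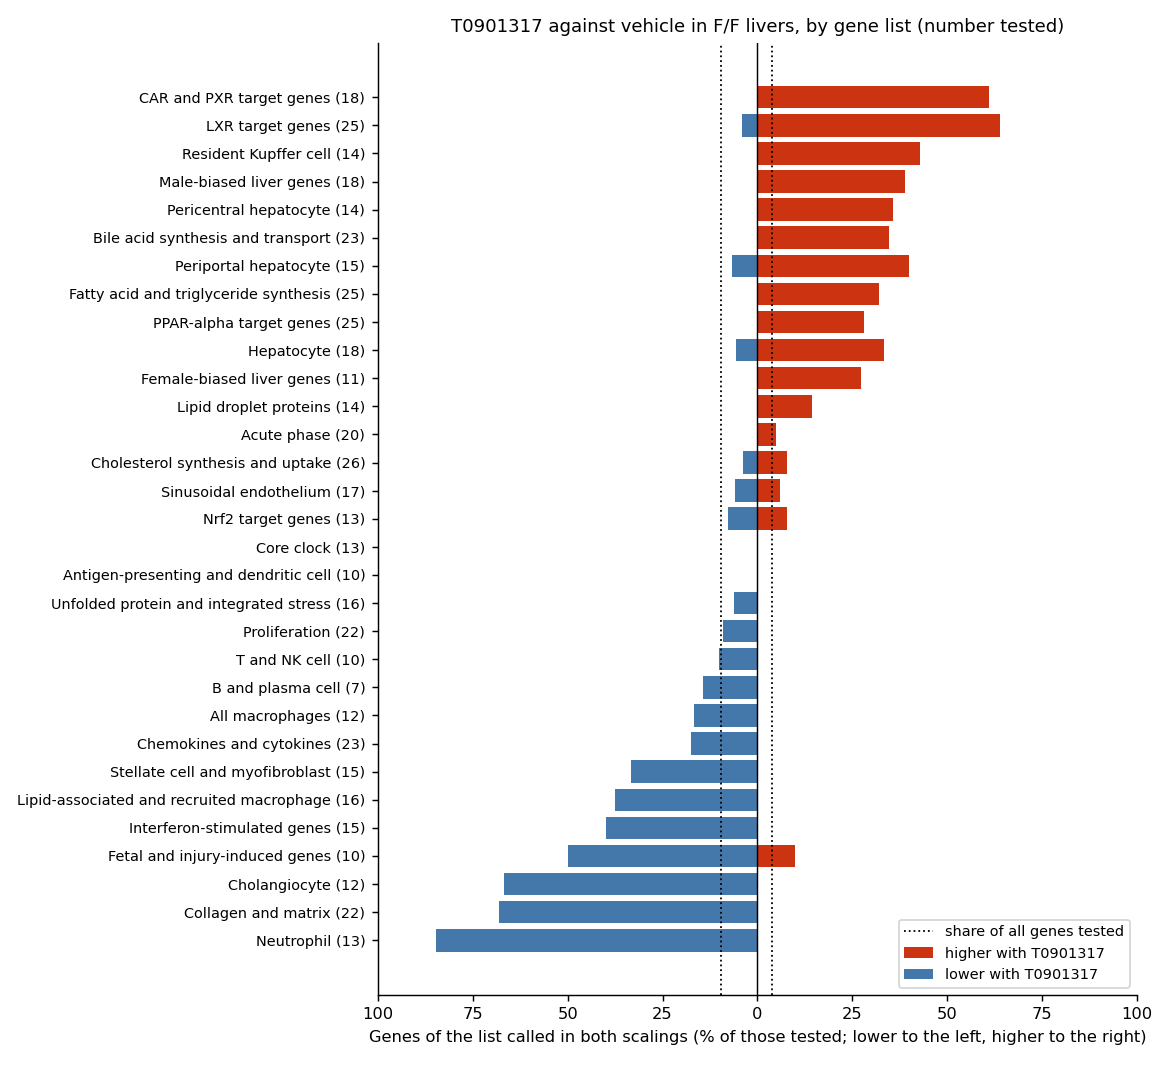
Share of a list's tested genes (number in brackets) that rose (red, right) or fell (blue, left) in both scalings with T0901317 in F/F livers; dotted lines mark the share of all genes, 3.86% higher and 9.59% lower. CAR and PXR targets, LXR targets and Kupffer genes extend farthest to the right, and of the lists drawn neutrophil, matrix and cholangiocyte genes farthest to the left; the blood list (4 genes tested, 3 lower) is not drawn.

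Genes outside the lists were named by size among those that rose or fell without overlap between the groups. The 15 largest rises were led by Inmt (ENSMUSG00000003477, chr6:55170626-55175043, minus strand), which methylates indole amines. Inmt was at 39.5, 10.7, 12.4 and 22.8 TPM with vehicle and at 851, 1441, 1545 and 830.4 TPM with T0901317 (log2 fold change 5.83 ± 0.36, adjusted p = 8.1e-13). Next to Cd5l, Scd1, Clec4f, Vsig4 and Thrsp stood the cytochromes Cyp2c54, Cyp2c29, Cyp2c50 and Cyp2b10, with rises of 3.82, 3.71, 3.21 and 3.49. Upp2, a uridine phosphorylase, was at 5.21 to 13.6 TPM and at 57.2 to 148 TPM, and Sult2a8, a bile acid sulfotransferase, at 3.33 to 5.39 TPM and at 20.8 to 87.6 TPM. Mup3, Hsd3b2 and Ces2a completed the 15, and Cyp2c54, Cyp2c50 and Hsd3b2 share 25.7%, 18.3% and 25.1% of their sequence with related genes. In every one of the 15, all F/F vehicle mice lay below all W/W vehicle mice. With T0901317 all F/F mice still did so for 7, and lay above them for 2. The 15 were chosen by a rise from the same F/F vehicle mice, so the first count is partly set by that choice. The share of all genes was not computed.

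Among the 15 largest falls 6 were genes of the neutrophil list, and Clec4d and Ccr1 are other genes of myeloid cells. Npy, neuropeptide Y, was at 9.84, 9.97, 11.9 and 11.2 TPM with vehicle and at 0.90, 0.22, 1.00 and 0.81 TPM with T0901317 (log2 fold change -2.78 ± 0.19, adjusted p = 9.5e-12), and W/W vehicle mice were listed at 0. Akr1c18, a progesterone-metabolising reductase, was at 10.1 to 25.5 TPM and at 0.84 to 4.77 TPM, and Cpe, a carboxypeptidase of hormone processing, at 182 to 199.7 TPM and at 23.2 to 73.2 TPM. Igha, an immunoglobulin heavy chain, was at 14.0, 16.8, 7.65 and 65.6 TPM with vehicle and at 2.84, 2.25, 0.68 and 3.83 TPM with T0901317. Mmp7 and Il7r (described above) and Mir6358 made up the rest. For these 15 genes all F/F vehicle mice lay above all W/W vehicle mice, and for 14 all treated F/F mice did so too. The 15 were chosen by a fall from the same F/F vehicle mice, and the share of all genes was not computed here either.

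The F/F response shared no libraries with the W/W and W/F responses, so their calls were set side by side. Of the 642 genes that rose in F/F, 99 also rose in W/W (15.4% of the F/F genes and 8.35% of the 1186 that rose in W/W) and 85 fell there (13.2% and 17.6%). Of the same 642, 453 also rose in W/F (70.6%, and 41.3% of the 1097 that rose there). Of the 1595 genes that fell in F/F, 18 fell in W/W (1.13% of these and 3.73% of 483), 102 rose in W/W (6.40% and 8.60%), and 1436 fell in W/F (90.0%, and 27.1% of 5296). In all, 38.4% of genes were called in W/F and 10% in W/W. By direction, 7.13% of all genes rose and 2.9% fell in W/W, and 6.59% rose and 31.8% fell in W/F. The 6.40% of falling F/F genes that rose in W/W is near the 7.13% of all genes and so is no result about them.

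The size of the response nevertheless differed from that of W/F livers for 10.7% of genes, 9.15% with a higher and 1.54% with a lower value in F/F. As deposited 3191 genes passed, 91.6% of them higher, and after rescaling 2345 passed, 65.2% of them higher. Without treated W/F mouse 1, 1907 passed as deposited. For the genes that fell, a higher value here means a smaller fall in F/F. In W/F 6.59% of all genes rose and 31.8% fell. All 16 lipid-associated macrophage genes fell in W/F, with a median of -3.62 against -0.93 in F/F, and all 16 passed the test of the difference. Gpnmb fell from 435 ± 136 to 10.3 ± 18.2 TPM in W/F mice (SD, n = 4 each), where treated mouse 2 held 37.7 TPM and the others at most 1.74 TPM, and the response differed by 5.02 (adjusted p = 5.6e-05). Of the 22 matrix genes 21 fell in W/F, with a median of -2.18 against -0.88 in F/F, and 16 passed the test of the difference. Of the 23 chemokine and cytokine genes 21 fell in W/F and 11 passed that test. For neutrophil genes 11 of 13 fell in W/F, as in F/F. The fall in log2(TPM + 1) was called as smaller in F/F for 1 and larger for 2, Camp and Ltf. In W/F mice the mean of Camp was 1.945 TPM with vehicle and 0.089 TPM with T0901317, and that of Ltf 0.968 and 0.121 TPM. At such levels the added 1 TPM limits the fall in W/F, so a larger fall in F/F cannot be told apart from this limit. Cd5l was at 223 to 308 TPM in W/F mice with vehicle and at 57.8, 367, 86.9 and 44.9 TPM with T0901317, where treated W/F mouse 2 was above every vehicle mouse and the other 3 below. Its response differed between F/F and W/F by 6.93 (adjusted p = 1.5e-09). Clec4f was at 25.03 to 64.6 TPM in W/F mice with vehicle and at 43.1 to 117 TPM with T0901317, and its response was larger in F/F by 3.88 (adjusted p = 2.2e-07). Among the 25 LXR targets, 10 had a higher response in F/F and 0 a lower one. That of Scd1 was larger in F/F by 3.44 (adjusted p = 5.8e-06), while those of Abcg5 and Srebf1 differed by 0.02 (adjusted p = 0.98) and -0.24 (adjusted p = 0.61). Mup7, Mup15, Mup11 and Mup17 responded less in F/F, by -8.23 to -6.81, with 77.8% to 100% of their sequence shared among Mup genes.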

How the data were processed

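PolyA RNA of 36 mouse livers was sequenced, 4 from each of 9 groups, and groups were taken from the sample titles. The authors deposited 1 table of TPM (transcripts per 1000000, a level per transcript length) for 49315 genes. Per the submitters' processing notes, reads were trimmed with Trimmomatic 0.36, aligned with STAR 2.5.2b to GRCm38 (mm10) and counted with featureCounts of Subread 1.5.2. The annotation and the use of strand are not given in the sources used here, so reads of overlapping genes may be mixed. Gene positions, overlaps and sequence shared between genes (as 50-base words) were computed from GENCODE M21 for the 49056 genes it holds, and promoters were read from RefSeq (GRCm38.p6).

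From these TPM, log2(TPM + 1) of the 16638 genes at 1 TPM or more in at least 4 libraries was fitted with limma 3.58.1 (R 4.3.3), with 1 mean for each of the 9 groups, a trended prior and 27 residual degrees of freedom. All p-values are two-sided and adjusted by Benjamini-Hochberg over all these genes at 0.05. Such fold changes understate the change of low genes. The fit was repeated after dividing each library by its median ratio over the 10269 genes at 1 TPM or more in all libraries, and a call needed both scalings. Depth was recovered from the steps of low TPM values with M21 exon lengths, where 93.7% to 95.6% of values lay within 0.1 of a whole read. It ranged from 18.0 to 35.8 M reads over the 36 libraries, and no count test was run on these reads.

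Named genes were the 15 largest rises and falls with a mean of at least 5 TPM in 1 group, no overlap between groups and both scalings passed (unnamed gene models left out), the 6 largest and smallest differences to W/W and to W/F, up to 4 called genes for each list and direction, and 20 genes always given. Members of the 32 lists (521 genes) beyond these are named with their values as examples. The members, lists and rules were chosen with earlier results of these data known. Alternatives were a pseudocount of 0.1, a minimum of 5 TPM, no minimum, rescaling, only the groups compared, the replicate number as a block, array weights and each mouse left out. The fit was tested on simulated data. Some genes of the lists are not reported here by name.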

Additional observations from a re-analysis of the deposited data

Results flagged for a closer look

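Single mice stood apart from the other 3 of their group for 5 of the 94 groups of values tested (47 genes in 2 groups), and chance flags about 1 in 20 such groups. Thrsp was at 26.2 TPM in treated F/F mouse 4, against 86.6 to 97.02 TPM in the other treated mice. Igha was at 65.6 TPM in vehicle mouse 4, against 7.65 to 16.8 TPM. Camp was at 1.73 TPM in treated mouse 1, against 0.97 to 1.09 TPM, and Mir6358 at 18.1 TPM in the same mouse, against 2.24 to 4.85 TPM. Col1a1 was at 299 TPM in vehicle mouse 2, against 255 to 261 TPM.

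Differences between the F/F and W/W responses that passed limma's test in both scalings are given as differences of log2 fold changes. They were higher in F/F by 5.57 for Mup3, 5.37 for Serpina1e, 5.0002 for Inmt, 4.80 for Cd5l, 4.75 for Serpina4-ps1, 4.63 for Slc22a7, 4.03 for Clec4f, 3.86 for Scd1, 1.55 for Srebf1, 1.32 for Abcg5 and 1.13 for Abcg8. They were -5.64 for Gm22935, -5.44 for Ly6d, -5.11 for Fabp5, -4.62 for Pnpla3, -4.42 for G6pdx, -4.40 for Sqle and -3.19 for Col1a1. A higher response is not always a rise in F/F. Serpina1e and Serpina4-ps1 were not called in F/F (log2 fold changes -0.14 and 1.53) and fell in W/W (-5.50 and -3.22). Serpina1e shares 34.6% of its sequence with related genes.

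Against W/F the response was higher in F/F by 6.93 for Cd5l, 5.9985 for Sprr1a, 5.34 for Ly6d, 5.25 for Cyp2a4, 5.14 for H2-M2, 5.02 for Gpnmb, 3.88 for Clec4f, 3.44 for Scd1, 2.56 for Ccl2, 2.11 for Col1a1, 1.70 for Abcg1 and 1.019 for Mylip. It was -8.23 for Mup7, -7.18 for Mup15, -7.05 for Mup11, -6.81 for Mup17, -6.27 for Cfd and -5.81 for Hsd3b5. Ly6d did not rise in F/F (log2 fold change -0.94, not called) and fell in W/F (-6.27). Abcg1 and Mylip were not called in F/F. In W/F mice Abcg1 was at 31.3 to 49.5 TPM with vehicle and at 9.27 to 31.8 TPM with T0901317. Mylip was at 18.2 to 24.9 TPM and at 11.6 to 17.7 TPM there. Gpnmb, Ccl2 and Col1a1 had negative log2 fold changes in F/F too, so their higher value is a smaller decrease.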

How the results depend on the processing

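The number of genes called in F/F livers was 5841 as deposited and 2898 after rescaling. Leaving out each mouse in turn gave 3244 to 6361, with the lowest without treated F/F mouse 3. For the difference between F/F and W/W the count was 5065, 3005 after rescaling and 3616 to 5493 with a mouse left out. For the difference between F/F and W/F it was 3191, 5156 with array weights and 1907 to 4127 with a mouse left out. The fold change of Nr1h3 turned to 0.14 after rescaling and to 0.13 after rescaling without treated mouse 3. That of Pnpla3 turned to 0.0309 after rescaling and to 0.0863 after rescaling without treated mouse 3, and ranged from -0.2681 to 0.0559 with a mouse left out; the cause was not tested. Over 141 results, 1053 of 1100 values under other settings and 1292 of 1320 with a mouse left out kept their direction and their side of the threshold. Ccl2, Gpnmb, Col1a1, Fasn, Ccl4, Ccl7, Timp1 and Tgfb1 were among those that did not.

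With the replicate number as a block, 6041 genes were called for the F/F response, and 5227 and 3432 for its difference from W/W and from W/F. Same-numbered vehicle and treated mice did not deviate together (correlations -0.13, -0.05, 0.01 and 0.03). Differently numbered mice gave -0.10 to 0.12. With 4 mice a group this check shows no pairing by number but cannot exclude one.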
